A study of Mus musculus with 48 samples.

Results

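The unfolded protein response is the set of genes with which a cell adjusts the folding capacity of its endoplasmic reticulum (ER). Its level was followed here in mouse pancreatic β cells, α cells and, in both, after β-cell ablation. A total of 40 genes, listed by symbol as sensors, chaperones, oxidases and degradation factors of the pathway, with earlier results of these data known, were taken out of the 42713 genes of the deposited table. All 40 were found. They comprise 5 sensors and transducers (Ern1, Eif2ak3, Atf6, Xbp1, Atf4), 10 genes of the kind that the factor ATF6 induces, 11 of the kind that XBP1 induces, 6 of the kind that ATF4 induces, and 8 further genes for folding and retrieval. The grouping by factor is a textbook one, and many of these genes respond to more than 1 factor.

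Every mouse, controls included, was a 6- to 8-week-old male carrying ProGcg-Venus, which marks α cells, RIP-Cherry, which marks β cells, the PER2::Luc clock reporter, Insulin-rtTA and TET-DTA. The insulin promoter drives the rtTA activator, so doxycycline switches on diphtheria toxin A in β cells. Doxycycline was given to the ablated mice at 300 mg in water sweetened with 2% sucrose, and controls drank sucrose water alone. No group received doxycycline without the toxin gene, so the drug and the ablation cannot be told apart. Feeding was restricted to the night from 10 days before, under 12 h light and 12 h dark. Some of the animals were entrained to an inverted light and feeding cycle for 2 weeks, and the labels do not say which libraries came from them. α and β cells were sorted by flow cytometry from fresh islets at zeitgeber time (ZT, hours after lights on) 0, 4, 8, 12, 16 and 20, with 2 polyA RNA libraries per time, treatment and cell type. This gives 12 libraries for each of 4 conditions (control α, control β, doxycycline α, doxycycline β), or 48 in all. The labels call the libraries duplicates without naming separate animals, so p-values measure the spread between these libraries. The cells were pooled populations, in which fewer cells of a kind and less RNA per cell cannot be told apart.

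The ER folds and modifies secreted proteins, and a β cell makes proinsulin in very large amounts. When unfolded protein builds up, 3 membrane sensors respond. IRE1 (Ern1) splices Xbp1 mRNA, PERK (Eif2ak3) slows translation and favours ATF4, and ATF6 is cut to release a transcription factor. XBP1 and ATF6 raise chaperones and the machinery of ER-associated degradation (ERAD). ATF4 raises amino acid supply and, under lasting stress, the death-linked genes Ddit3 (CHOP), Trib3 and Chac1. Splicing, phosphorylation and cleavage are not visible in gene-level counts.

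The DNA elements through which ATF6 and XBP1 are known to act are shown for the members whose levels are described below. RefSeq start sites on GRCm38.p6 were matched for 35 of the 40 members, Ero1l and Ero1lb through their RefSeq symbols Ero1a and Ero1b. Atf6, Hyou1, Manf, Derl1 and Kdelr2 had no entry. Windows from 250 bases before to 50 bases after each start were searched on both strands. The ER stress response element (ERSE) was spelled CCAAT, 9 bases of any kind, then CCACG. It was found in 10 of the 35 matched members (28.6%), against 37 of the 27025 genes with a window (0.137%). Many members were listed as genes that ATF6 or XBP1 induces, so this larger share is no independent result. Each site reads 5′ to 3′ along the element, with 15 bases on either side (5 for Hspa5) and the fixed letters in capitals. These 6 belong to members named repeatedly below.
Hspa5 (chr2:34772020-34772048, plus strand): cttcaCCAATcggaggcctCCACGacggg
Creld2 (chr15:88819505-88819553, minus strand): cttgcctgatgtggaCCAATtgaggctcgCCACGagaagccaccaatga
Derl3 (chr10:75893227-75893275, minus strand): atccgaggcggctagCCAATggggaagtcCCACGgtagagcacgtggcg
Syvn1 (chr19:6046517-6046565, plus strand): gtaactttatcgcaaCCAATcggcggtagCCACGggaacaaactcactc
Pdia6 (chr12:17266476-17266524, plus strand): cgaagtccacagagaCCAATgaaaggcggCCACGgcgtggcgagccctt
Dnajc3 (chr14:118937812-118937860, plus strand): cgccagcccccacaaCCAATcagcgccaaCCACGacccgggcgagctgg
The 10 members with the spelling were Hspa5, Hsp90b1 (at 2 positions), Calr, Creld2, Dnajc3, Derl3, Syvn1, Pdia6, Canx and Ero1lb. By group these were 4 of 8 matched ATF6-type members, 4 of 10 XBP1-type, 2 of 7 of the further genes, 0 of 6 ATF4-type and 0 of 4 sensors.

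Another 3 spellings were searched for. ERSE-II (ATTGG, 1 base, CCACG; 12 genes, 0.044% of those with a window) stood in Herpud1 and Dnajb11. The unfolded protein response element (UPRE; TGACGTGG; 193 genes, 0.714%) stood in Kdelr3. The amino acid response element (AARE; TGATGCAA; 279 genes, 1.03%) stood in Herpud1 and Chac1. No 2 of these matches share a base in the members' windows. They are shown for the ERAD gene Herpud1, the retrieval receptor Kdelr3 and the ATF4-type gene Chac1, which are described below.
Herpud1 ERSE-II (chr8:94386362-94386402, plus strand): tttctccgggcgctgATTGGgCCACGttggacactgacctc
Herpud1 AARE (chr8:94386302-94386339, minus strand): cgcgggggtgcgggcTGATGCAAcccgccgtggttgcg
Kdelr3 UPRE (chr15:79516363-79516400, minus strand): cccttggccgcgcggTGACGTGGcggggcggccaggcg
Chac1 AARE (chr2:119351034-119351071, minus strand): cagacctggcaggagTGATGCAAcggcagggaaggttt
The 250 bases before the RefSeq start are given for the 3 members with the highest doxycycline-to-control fold in β cells, since their sequence is what a reader would inspect next. They are written on the plus strand, so an element on the minus strand appears in capitals as its reverse complement.
Kdelr3 (chr15:79516158-79516407): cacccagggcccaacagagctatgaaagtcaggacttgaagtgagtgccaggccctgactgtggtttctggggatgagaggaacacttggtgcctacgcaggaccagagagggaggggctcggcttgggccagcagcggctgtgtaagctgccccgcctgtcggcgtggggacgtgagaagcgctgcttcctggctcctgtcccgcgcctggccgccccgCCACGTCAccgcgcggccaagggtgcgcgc
Derl3 (chr10:75893148-75893397): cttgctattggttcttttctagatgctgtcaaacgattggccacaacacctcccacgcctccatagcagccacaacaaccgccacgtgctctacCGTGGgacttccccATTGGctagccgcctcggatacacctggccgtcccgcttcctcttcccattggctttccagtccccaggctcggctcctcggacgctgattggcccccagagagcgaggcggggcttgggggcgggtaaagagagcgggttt
Creld2 (chr15:88819396-88819645): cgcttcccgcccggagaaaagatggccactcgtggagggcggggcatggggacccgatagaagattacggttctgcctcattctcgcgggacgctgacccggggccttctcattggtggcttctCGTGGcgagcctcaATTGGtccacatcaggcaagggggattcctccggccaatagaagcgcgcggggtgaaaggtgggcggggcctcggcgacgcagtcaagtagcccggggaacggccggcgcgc
A match describes the letters in a window and does not show that a factor binds there, and no match says only that these letters are not in the window.

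Depth, the sum of estimated counts in a library, was 16.1 to 69.9 M (mega, the usual unit of sequencing depth). The 20 libraries of an earlier sequencing run (replicate 1 of ZT4 to ZT20) had 16.1 to 28.6 M, and the 28 of a later run 37.4 to 69.9 M. The run was a term in every model. Levels are given in CPM, counts per mega count of the library after its scaling. The summed level of 9 α-cell markers was 247785 to 396234 CPM in control α cells and 359 to 859 CPM in control β cells. The sum of 13 β-cell markers was 249433 to 438598 CPM in control β cells and 1028 to 4757 CPM in control α cells. Each label therefore matched its own marker list. The sum of 8 delta, PP and epsilon-cell markers was 22272 to 49146 CPM (median 31760) in control α cells. In control β cells it was 468 to 1228 CPM (median 706). After doxycycline it was 32883 to 58120 CPM in α and 715 to 1748 CPM in β cells. The part of such cells in the differences between β and α cells was not tested. Doxycycline β-cell libraries also carried more macrophage and dendritic-cell RNA. The sum of 15 such markers had a median of 214 CPM (59.6 to 444) in control β cells and 861 CPM (149 to 1775) in doxycycline β cells, and 15 of 15 were higher by the test. In α cells it was 75.8 CPM (43.3 to 129) and 88.7 CPM (52.8 to 150). The α-cell markers in β cells rose from a median sum of 725 to 2401 CPM, and of 13 β-cell markers 8 fell and 2 rose. Acinar markers were uneven, from 12.5 to 5809 CPM in doxycycline β cells (median 16) and up to 8420 CPM in doxycycline α cells, with Prss1 at 0 in every β library. Plasma-cell and lymphocyte markers summed to 10.0 to 39.0 CPM in control and 8.70 to 119 CPM in doxycycline β cells (medians 20.2 and 17.1). Immediate early genes, which rise when tissue is handled, summed to 312 to 4389 CPM in control α, 475 to 3732 in doxycycline α, 226 to 1622 in control β and 285 to 1081 CPM in doxycycline β cells.

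β cells of control mice held more RNA of most members than α cells did. By edgeR's quasi-likelihood test with Benjamini-Hochberg adjustment over all genes, 37 of 40 members had a higher and 2 a lower level in β cells at an adjusted p under 0.05. Of all genes tested, 34.2% were higher and 37.3% lower. The median difference (log2, β minus α) was 1.03 over members and −0.03 over all genes, and 21 members were at least 2-fold higher. Group medians were 1.11 for ATF6-type, 1.1 for XBP1-type, 1.13 for ATF4-type and 0.64 for the further genes, and 0.60 for the sensors. In 22 members every control β library lay above every control α library, against 12.3% of all genes, and in 1 every β library lay below (10.9%).

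Ero1lb, the pancreatic oxidase that recharges protein disulfide isomerases, differed most. It ranged from 2522 to 4881 CPM in control β cells (median 3434) and from 87.6 to 145 CPM in control α cells (median 112). No libraries overlapped, and the difference was 4.91 ± 0.08 on the log2 scale (SE, n = 12 per group; adjusted p 2.63e-21), a 30.1-fold higher level. Ero1l, the form found in most tissues, had medians of 59.1 and 51.3 CPM and a difference of 0.21 ± 0.05 (adjusted p 0.00163). That call was lost in the earlier run alone and with a macrophage score in the model. On the length-scaled RPKM scale, the median in control β cells was 488 for Ero1lb and 513 for P4hb, a protein disulfide isomerase and the highest member. Wfs1, the wolframin of the ER membrane whose loss causes diabetes, had a median of 285 CPM (201 to 405) in β and 42.9 CPM (34.1 to 59.3) in α cells, a difference of 2.71 ± 0.07 (adjusted p 4.23e-18).

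ERAD members were higher in β cells as well. Edem1, an ERAD factor for misfolded glycoproteins, had 108 to 212 CPM in β cells (median 140). It had 18.2 to 32.9 CPM in α cells (median 23.9), a difference of 2.49 ± 0.07 (adjusted p 9.97e-18). Derl3, a channel component induced by XBP1, had 8.37 to 33.7 CPM in β cells and 0.703 to 3.46 CPM in α cells. The 2 groups did not overlap, and the fold was 10.7 (log2 3.42 ± 0.18, adjusted p 3.4e-13). Its constitutive relatives Derl1 and Derl2 differed by 1.35 ± 0.07 and 1.1 ± 0.06 (adjusted p 3.02e-13 and 2.65e-13), with β medians of 191 and 125 CPM and α medians of 78.0 and 54.4 CPM. Sel1l, the partner of the ubiquitin ligase Syvn1, had medians of 222 and 67.4 CPM and differed by 1.60 ± 0.06 (adjusted p 5.43e-16).

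Among chaperones and co-chaperones, Sdf2l1 had a median of 155 CPM (67.7 to 239) in β and 25.0 CPM (17.4 to 43.6) in α cells (2.48 ± 0.11, adjusted p 2.35e-14). Dnajb11, a BiP co-chaperone, had medians of 111 and 29.5 CPM (1.82 ± 0.06, adjusted p 2.69e-16). Hyou1, an exchange factor for BiP, ranged from 529 to 1743 CPM in β and from 199.98 to 443 CPM in α cells (1.63 ± 0.09, adjusted p 4.83e-13). These 3 did not overlap between the cell types. BiP itself (Hspa5), the chief ER chaperone and the brake on all 3 sensors, overlapped. Its control β libraries had 1165 to 2472 CPM (median 1769.6) and its control α libraries 699.9 to 1242 CPM (median 912), a difference of 0.87 ± 0.07 (adjusted p 6.6e-10).

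The ATF4-type genes were higher in β cells except Ppp1r15a, which restarts translation (0.15 ± 0.15, adjusted p 0.375). Trib3, a pseudokinase, had 1.92 to 8.82 CPM in β and 0.134 to 0.579 CPM in α cells, a fold of 14.8 at low levels (3.89 ± 0.26, adjusted p 1.3e-11). Chac1, which degrades glutathione, had 5.54 to 36.8 CPM and 0.662 to 2.91 CPM (3.11 ± 0.26, adjusted p 6.81e-10). Neither overlapped. Asns, asparagine synthetase, had 90.9 to 158 CPM and 33.3 to 45 CPM (1.44 ± 0.07, adjusted p 8.07e-14). Ddit3 had 11.5 to 24.9 CPM (median 15.7) and 6.64 to 12.0 CPM (median 8.98), overlapping, with a difference of 0.82 ± 0.11 (adjusted p 1.05e-06).

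Of the sensors, Atf6 differed most. It had 161 to 279 CPM in β and 64.5 to 115 CPM in α cells (1.21 ± 0.07, adjusted p 3.6e-13). Atf4 had medians of 206 (131 to 264) and 101 CPM (66.0 to 148; 0.91 ± 0.10, adjusted p 5.68e-08). Eif2ak3 had medians of 102 (59.7 to 116) and 58.4 CPM (45.5 to 68.5; 0.60 ± 0.08, adjusted p 3.54e-07), and Xbp1 307 (264 to 389) and 243 CPM (193 to 279; 0.36 ± 0.07, adjusted p 0.000199). The Eif2ak3 and Xbp1 calls were lost with the macrophage score in the model, as were those of Hsp90b1 and Kdelr1. Ern1 had 147 to 256 CPM (median 209) in β and 176 to 307 CPM (median 211) in α cells. Its difference of −0.12 ± 0.05 passed narrowly (adjusted p 0.0386) and was lost without any 1 of 16 libraries.

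Kdelr3 was the exception. Its protein is 1 of the receptors that return KDEL-tagged chaperones from the Golgi to the ER. Control β cells held 2.15 to 7.29 CPM (median 5.61) and control α cells 17.1 to 27.5 CPM (median 19.5), without overlap. The β level was 0.257 of the α level (−1.96 ± 0.14, adjusted p 3.42e-11). Kdelr1 and Kdelr2 were instead higher in β cells, by 0.27 and 0.52. The summed level of 8 stellate and fibroblast markers was also lower in control β cells (0.435 to 52.9 CPM, median 10.7) than in control α cells (34.6 to 108 CPM, median 56.8), and its part in the Kdelr3 difference was not tested.

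**Figure D1:**
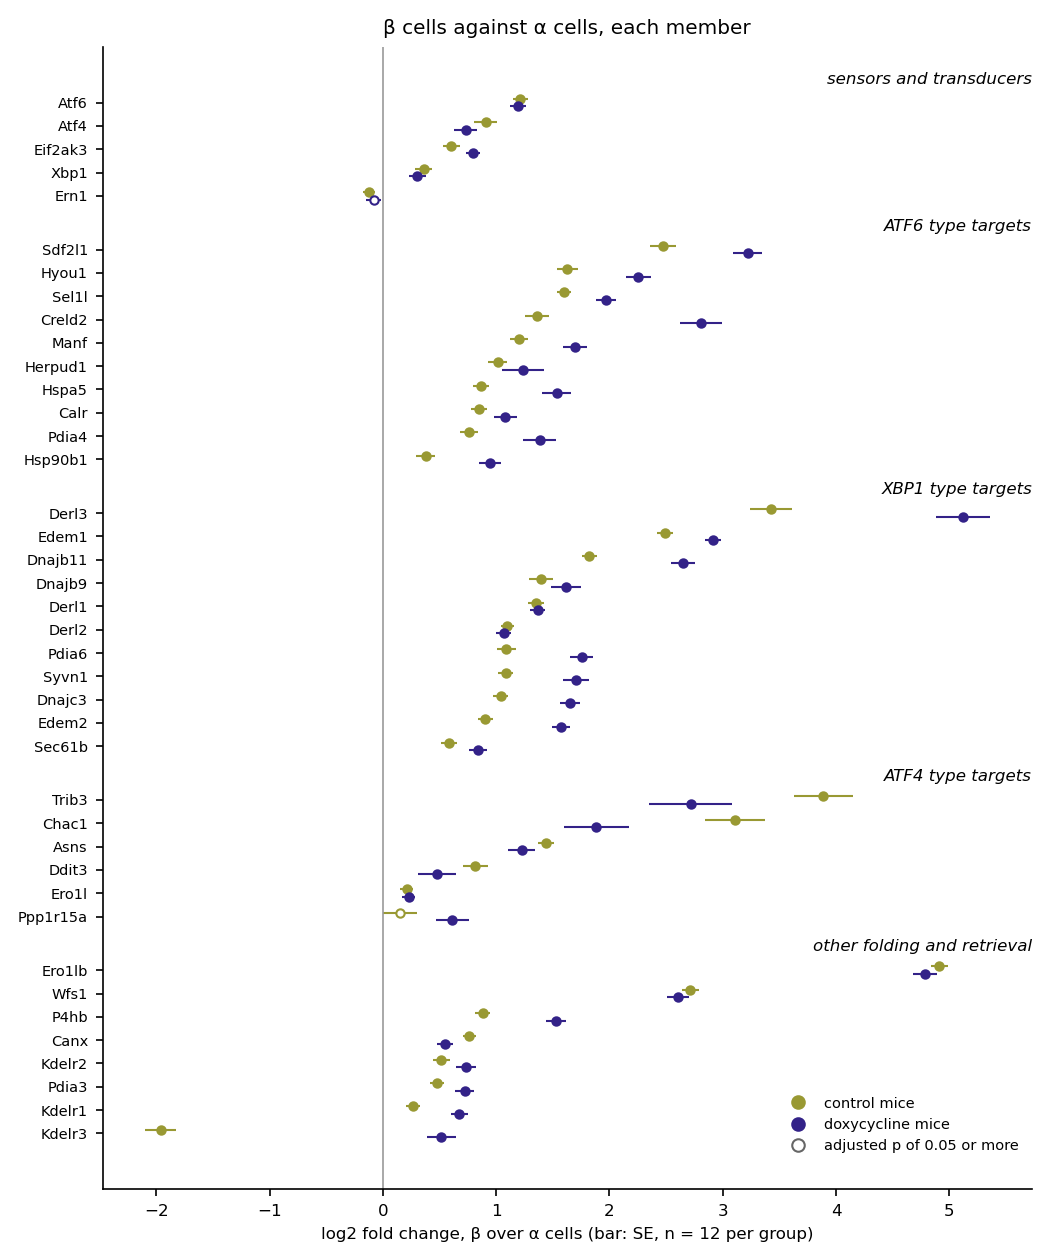
Difference between β and α cells (log2, β minus α, with its standard error, n = 12 libraries per group) for each of the 40 members, by group, in control mice (olive) and doxycycline-treated mice (indigo). Filled points have an adjusted p under 0.05. All points but those of Ern1 and control Kdelr3 lie above 0, and Ero1lb, Derl3, Trib3 and Chac1 lie farthest out in control mice.

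After doxycycline, 39 of 40 members were higher in β than in α cells and 0 were lower (35.6% and 35.7% of all genes), with a median difference of 1.38. The exception was Ern1 (−0.08 ± 0.07, adjusted p 0.3). Derl3 stood highest at 34.7-fold (5.12 ± 0.24, adjusted p 5.98e-14), above Ero1lb at 27.5-fold (4.78 ± 0.11, adjusted p 7.55e-19). Creld2 stood at 7.01-fold (2.81 ± 0.19, adjusted p 1.93e-11) and Hspa5 at 1.53 ± 0.13 (adjusted p 1.13e-09). Kdelr3 was now higher in β cells (0.52 ± 0.13, adjusted p 0.00128), a call lost in the earlier run alone and with the macrophage score. Every β library lay above every α library in 22 members (11.2% of all genes) and below in 0 (9.30%). The calls of Xbp1 and Ero1l were lost under the same 2 settings, and that of Ppp1r15a with the macrophage score. Ddit3 was higher (0.48 ± 0.16, adjusted p 0.0135), but not without doxycycline β ZT0 replicate 2 (adjusted p 0.0505), in the later run alone or with ZT0 left out. The median of the ATF6-type members was 1.61, of the XBP1-type 1.65, of the ATF4-type 0.92, of the further genes 0.73 and of the sensors 0.73. A total of 29 members stood further above the α level than in control mice, a count given without the share over all genes. The test of the difference between the treatments is given below.

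In β cells, doxycycline treatment came with higher levels of the chaperone and ERAD members, while the sensors and the ATF4-type genes moved little. Of 40 members, 26 rose and 0 fell, against 23.8% and 23.1% of all genes tested. Their median was 0.33 on the log2 scale, and that of all genes was −0.01. Folds ran from 0.792 to 6.63 with a median of 1.25, and 3 members rose at least 2-fold. By group, 9 of 10 ATF6-type members rose (median 0.65), 9 of 11 XBP1-type (0.64), 5 of 8 further genes (0.27), 2 of 5 sensors (0.05) and 1 of 6 ATF4-type genes (−0.09). The macrophage marker sum given above was higher in the same libraries. With a score of these markers in the model 23 members were called, all higher, a count given without the share over all genes. Dnajb9, Eif2ak3 and Kdelr2 lost their calls. In that model the values were 2.75 for Kdelr3, 1.88 for Derl3, 1.68 for Creld2, 0.88 for Hspa5 and 0.86 for Edem2. The score and the treatment rise together in these libraries, and the part of macrophage RNA in these values was not tested.

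Kdelr3 (chr15:79516408-79527739, plus strand) rose most. It had 2.15 to 7.29 CPM in control and 18.2 to 53.7 CPM in doxycycline β cells (median 37.4), without overlap. The fold was 6.63 (2.73 ± 0.13, adjusted p 1.9e-11), and the difference at the 6 times lay between 2.18 and 2.92. Its relatives Kdelr1 (0.41 ± 0.07, adjusted p 4.1e-05; medians 155 and 215 CPM) and Kdelr2 (0.26 ± 0.08, adjusted p 0.0133) rose less. The Kdelr2 call was lost in each run alone, with ZT0 left out and with the macrophage score. The stellate and fibroblast marker sum was 1.12 to 382 CPM (median 29.2) in doxycycline β cells, and 4 of these 8 markers rose. Its part in the Kdelr3 value was not tested.

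Derl3 (chr10:75893413-75895941, plus strand) had 8.37 to 33.7 CPM in control and 35.5 to 102 CPM in doxycycline β cells, again without overlap. The fold was 3.60 (1.85 ± 0.14, adjusted p 8.99e-09). Edem2, which trims mannose from misfolded glycoproteins, was the third member without overlap, at 116 to 195 CPM and 197 to 323 CPM (0.83 ± 0.08, adjusted p 9.21e-08). Those 3 of 40 stand beside 1.29% of all genes with every doxycycline library above every control library, and 1.19% with every one below. Edem1 had medians of 140 and 212 CPM (0.57 ± 0.07, adjusted p 9.36e-07). The ligase Syvn1 had 95.4 to 176 CPM and 124 to 399 CPM (0.68 ± 0.12, adjusted p 0.000119), and its partner Sel1l rose by 0.42 ± 0.09 (adjusted p 0.000482). The constitutive Derl1 (0.04 ± 0.07, adjusted p 0.663) and Derl2 (−0.06 ± 0.08, adjusted p 0.543) did not pass.

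Creld2 (chr15:88819646-88826681, plus strand), a secreted ER stress-inducible protein, had 50.4 to 160 CPM (median 96.5) in control and 89.0 to 475 CPM (median 304) in doxycycline β cells. The ranges overlapped, and the fold was 2.84 (1.51 ± 0.17, adjusted p 8.32e-07). Hspa5 (chr2:34771970-34777547, plus strand) had 1165 to 2472 CPM (median 1769.6) and 1242 to 4921 CPM (median 3172), a fold of 1.66 (0.73 ± 0.13, adjusted p 0.000142). On the length-scaled RPKM scale its median went from 439 to 746, and that of P4hb from 513 to 796. P4hb had 1174 to 1731 CPM and 1514 to 2891 CPM (0.73 ± 0.08, adjusted p 3.09e-07). Pdia6, another disulfide isomerase, had medians of 567 and 1021 CPM (0.77 ± 0.10, adjusted p 3.85e-06), and Pdia4 223 and 428 CPM (0.69 ± 0.13, adjusted p 0.000231).

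The co-chaperones of BiP rose with it. Dnajb11 had medians of 111 and 227 CPM (0.88 ± 0.11, adjusted p 2.83e-06), and Dnajc3, which also restrains PERK, 520.2 and 861 CPM (0.64 ± 0.09, adjusted p 1.06e-05). Sdf2l1 had 155 and 313 CPM (0.84 ± 0.13, adjusted p 2.32e-05), and Manf, a secreted factor that supports β-cell survival, 286 and 472 CPM (0.61 ± 0.10, adjusted p 3.54e-05). Hyou1 rose by 0.63 ± 0.12 (adjusted p 0.000239) and Hsp90b1, the ER form of HSP90, by 0.67 ± 0.12 (adjusted p 0.000121). The control and doxycycline libraries of these 6 overlapped. Smaller rises were those of the lectin chaperone Calr (0.28), Pdia3 (0.27), the translocon subunit Sec61b (0.28) and Dnajb9 (0.35 ± 0.13, adjusted p 0.0302). Calr and Pdia3 were not called in either run alone, and Sec61b not in the later run alone. Dnajb9 was not called in either run alone, with ZT0 left out, with the macrophage score, or without any 1 of 6 libraries: control β ZT0 replicates 1 and 2 and ZT12 replicate 1, and doxycycline β ZT12 replicate 2, ZT16 replicate 1 and ZT20 replicate 1 (highest adjusted p 0.0662). Herpud1 was the ATF6-type member that did not pass (0.27 ± 0.17, adjusted p 0.209).

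Among the sensors, Eif2ak3 rose by 0.30 ± 0.07 (adjusted p 0.00154), from a median of 102 to 115 CPM (doxycycline range 78.4 to 138). Ern1 rose by 0.19 ± 0.06 (adjusted p 0.0113), from 209 to 242 CPM (156 to 306). The Eif2ak3 call was lost with the macrophage score and when only the later run was used. The Ern1 call was lost in each run alone, without the TMM factors and without the run term. Xbp1 had medians of 307 and 317 CPM (243 to 393) and a difference of 0.02 ± 0.08 (adjusted p 0.889). Atf6 (202 and 210.2 CPM, 121 to 249; −0.01 ± 0.08, adjusted p 0.944) and Atf4 (206 and 211 CPM, 119 to 265; 0.05 ± 0.11, adjusted p 0.747) lay as close. The control and doxycycline groups of these 3 overlapped.

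Of the ATF4-type genes, Ppp1r15a rose (34.5 to 53.7 CPM; 0.54 ± 0.12, adjusted p 0.000751), though not in the later run alone. Ddit3 had 11.5 to 24.9 CPM in control and 7.70 to 24.2 CPM in doxycycline β cells (−0.09 ± 0.11, adjusted p 0.513). Trib3 had medians of 4.91 and 4.63 CPM (−0.04 ± 0.23, adjusted p 0.911), Chac1 17.2 and 13.0 CPM (−0.34 ± 0.25, adjusted p 0.277) and Asns 113 and 97.3 CPM (−0.13 ± 0.10, adjusted p 0.321). Chac1 was lower in the earlier run alone (−0.95, adjusted p 0.00266) and stood at 0.14 in the later run alone. Ero1l (−0.09 ± 0.05, adjusted p 0.164), Ero1lb (−0.06 ± 0.09, adjusted p 0.598), Wfs1 (−0.08 ± 0.08, adjusted p 0.442) and the lectin chaperone Canx (−0.14 ± 0.06, adjusted p 0.0689) did not pass.

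Within runs, 23 members were called in the earlier run alone (21 higher, and Chac1 and Canx lower) and 18 in the later run alone, all higher. Both counts are given without the share over all genes. The differences in the earlier and later run were 2.97 and 2.59 for Kdelr3, 1.95 and 1.79 for Derl3, 1.58 and 1.46 for Creld2 and 0.75 and 0.73 for Hspa5. At each of the 6 times 21 members, all among the 26, were higher after doxycycline, a count given without the share over all genes. The ERSE holders described above (8 of 10 called, median 0.68) stood beside 15 of 25 called and a median of 0.28 in the other matched members. Those others include all 6 ATF4-type genes and 4 sensors, from groups with medians of −0.09 and 0.05. Kdelr3, Dnajb11, Sdf2l1 and Edem2 rose without the element, and the holders Canx and Ero1lb were not called. The part of the element apart from the group was not tested.

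**Figure D2:**
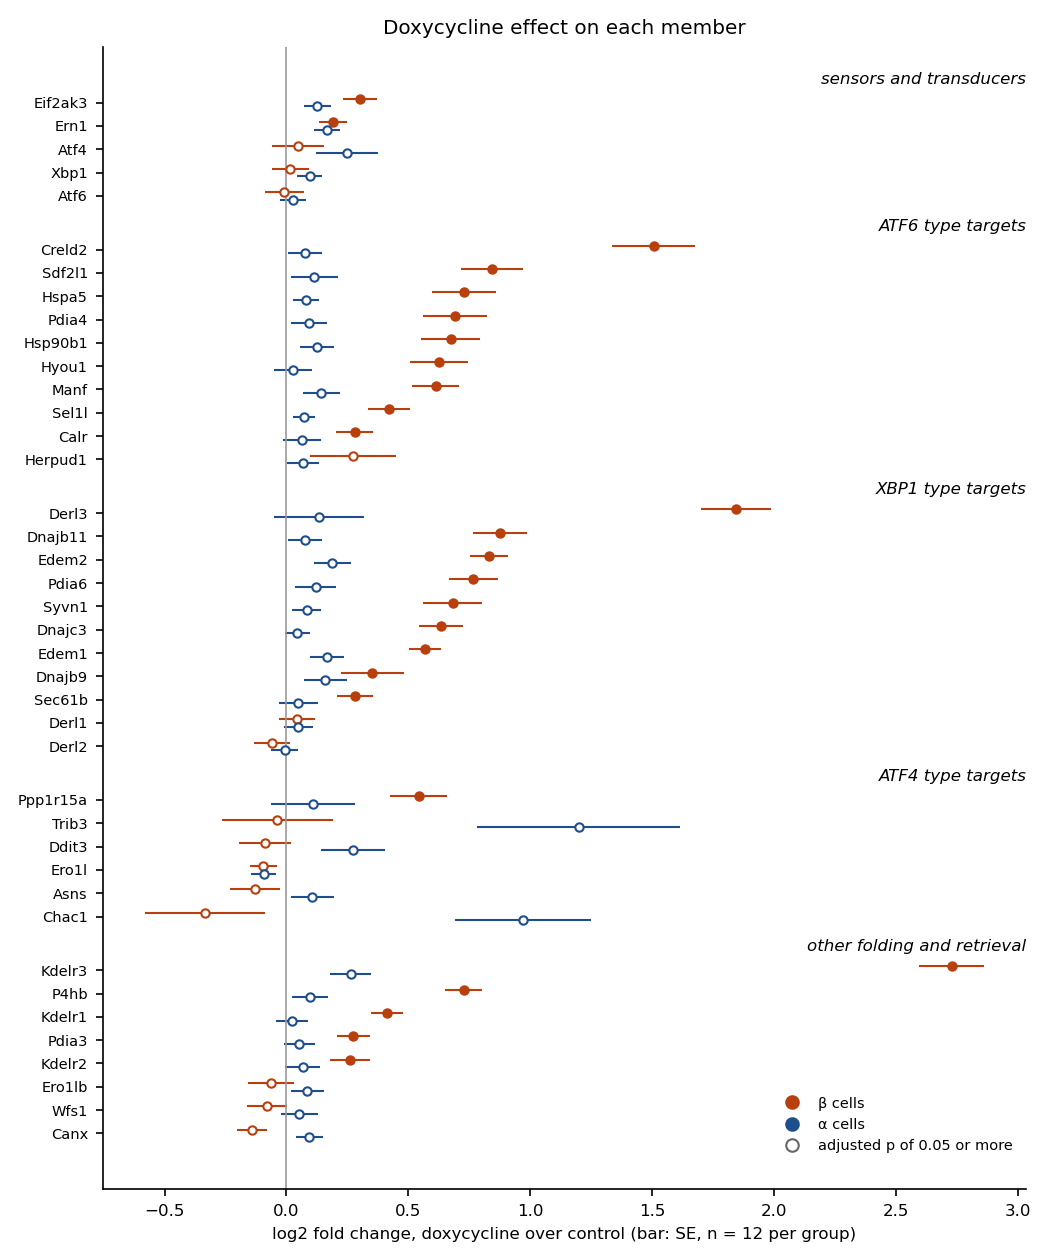
Doxycycline effect (log2, doxycycline minus control, with its standard error, n = 12 libraries per group) for each member in β and in α cells, by group. Filled points have an adjusted p under 0.05. In β cells Kdelr3, Derl3 and Creld2 lie farthest to the right, most chaperone and ERAD members lie between 0.26 and 0.88, and no point in α cells is filled.

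**Figure D3:**
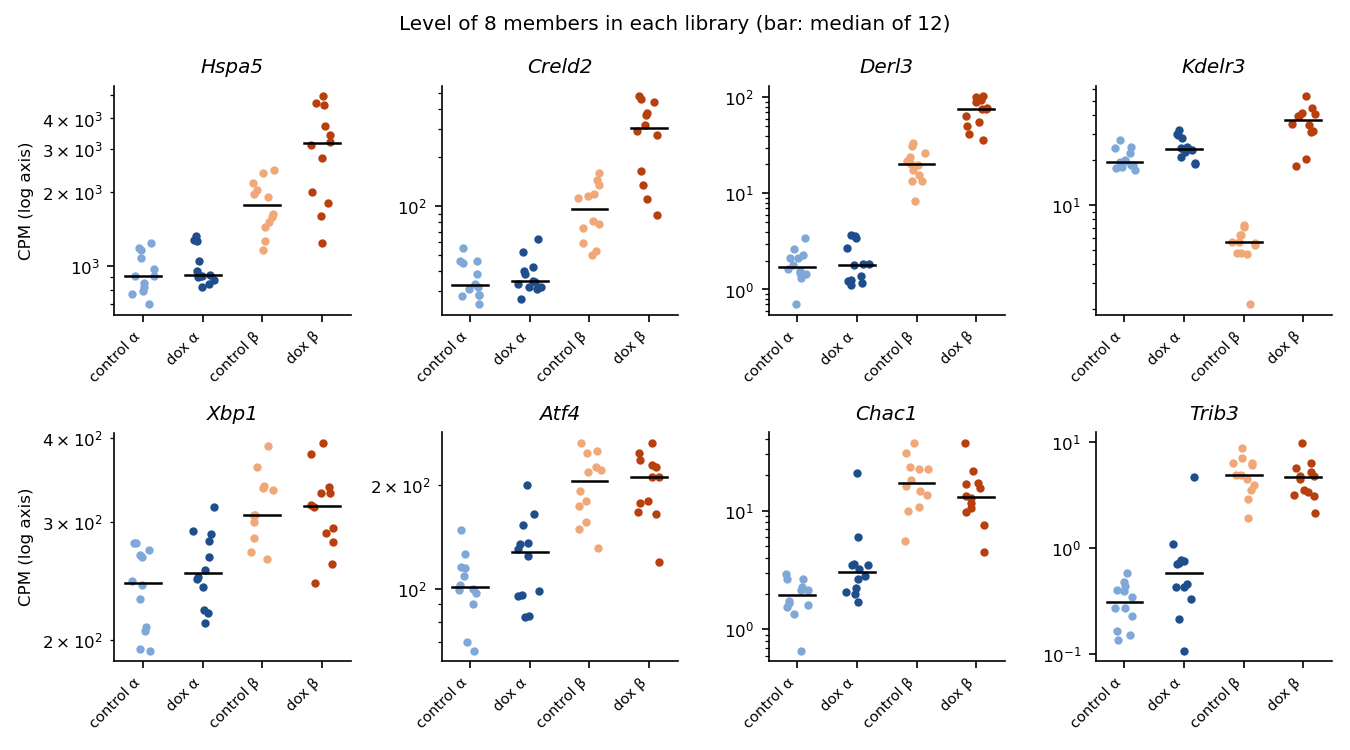
Level in CPM (log axis) in each of the 48 libraries for Hspa5, Creld2, Derl3, Kdelr3, Xbp1, Atf4, Chac1 and Trib3, by condition, with a bar at the median of 12. Kdelr3 and Derl3 separate control from doxycycline β libraries completely, Xbp1 and Atf4 overlap, and for Trib3 and Chac1 a single doxycycline α library stands above the others.

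In α cells, 0 of 40 members were called by edgeR, where 0.0804% of all genes were higher and 0.0469% lower. At an unadjusted p under 0.05 there were 7 members, and DESeq2 called 1. The median over members was 0.09. Every α library of 1 treatment lay apart from those of the other in 0 members and 0% of all genes. Hspa5 had 699.9 to 1242 CPM in control and 823 to 1332 CPM in doxycycline α cells (0.08 ± 0.05, adjusted p 0.811). Creld2 (0.08 ± 0.07, adjusted p 0.895), Derl3 (0.13 ± 0.19, adjusted p 0.956) and Xbp1 (0.09 ± 0.05, adjusted p 0.72) were similar in size. Kdelr3 had medians of 19.5 and 23.8 CPM (0.26 ± 0.09, adjusted p 0.32). The values of Ern1 (0.17 ± 0.05, adjusted p 0.286), Eif2ak3 (0.13 ± 0.06), Edem1 (0.17 ± 0.07), Trib3 and Chac1 were above 0 at all 6 times.

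The largest doxycycline effects in α cells were those of ATF4-type genes. Trib3 had 0.134 to 0.579 CPM in control and 0.107 to 4.72 CPM in doxycycline α cells (1.2 ± 0.42, adjusted p 0.373). Chac1 had 0.662 to 2.91 CPM and 1.70 to 20.5 CPM (0.97 ± 0.28, adjusted p 0.218), and Ddit3 6.64 to 12.0 CPM and 7.52 to 24.4 CPM (0.27 ± 0.13, adjusted p 0.645). The highest library of all 3 was doxycycline α ZT12 replicate 2. Leaving out each library in turn gave 0.77 to 1.33 for Trib3 and 0.63 to 1.07 for Chac1. Atf4 had medians of 101 and 128 CPM (0.25 ± 0.13, adjusted p 0.675).

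Whether doxycycline changed β cells more than α cells was tested as an interaction over all 48 libraries. The interaction was positive for 18 of 40 members and negative for 3, against 12.7% and 12.8% of all genes. All 18 were among the 26 that rose in β cells. They were led by Kdelr3 (2.45 ± 0.16, adjusted p 5.21e-14), Derl3 (1.65 ± 0.22, adjusted p 9.29e-07), Creld2 (1.41 ± 0.19, adjusted p 7.68e-07) and Dnajb11 (0.79 ± 0.13, adjusted p 3.29e-05). Hspa5 had an interaction of 0.63 ± 0.14 (adjusted p 0.00117). The 3 negative ones were Trib3 (−1.33 ± 0.47, adjusted p 0.0324), Chac1 (−1.33 ± 0.39, adjusted p 0.0109) and Canx (−0.25 ± 0.09, adjusted p 0.0288). The Trib3 call was lost without any 1 of 10 libraries, doxycycline α ZT12 replicate 2 among them (values −1.49 to −0.87), and the Canx call without any 1 of 5, while Chac1 kept its call without each library (−1.46 to −0.97). Trib3 and Canx were called in neither run by itself, and Chac1 was not called in the later run. With the macrophage score in the model 19 members were called and 0 were negative. The interactions of Edem1, Hspa5, Hyou1, Sdf2l1 and Syvn1 were not called in the later run alone, where 8 members were called in all. Those of Hsp90b1, Kdelr1, Manf, Pdia4 and Sel1l were not called in either run alone. The counts of 19 and 8 are given without the share over all genes.

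Time of day was examined next, since the samples were taken every 4 h around the clock in mice fed at night. A 24 h cosine was fitted in each condition, and its amplitude is the height of its peak above the mean level on the log2 scale. In control α cells 14 of the 39 members tested followed the cosine, against 4.49% of all genes. In control β cells 3 of 40 did (2.17%), in doxycycline β cells 22 of 40 (11.6%) and in doxycycline α cells 3 of 39 (2.82%). Trib3 was too low in α cells to be tested. Peaks of the called members fell in the dark phase: at ZT13.6 to ZT19.0 in control α, ZT18.0 to ZT18.9 in control β, ZT19.0 to ZT23.3 in doxycycline β and ZT12.9 to ZT20.7 in doxycycline α cells. These counts depend on single libraries, as given beside each.

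In control α cells, 9 of 10 ATF6-type members followed the cosine, with 2 of 11 XBP1-type, 2 of 5 sensors (Ern1, Atf6), 1 of 8 further genes (Pdia3) and 0 of 5 ATF4-type genes. Hyou1 had an amplitude of 0.47 ± 0.06 and peaked at ZT17.8 ± 0.5 (adjusted p 0.00249). Creld2 (0.45 ± 0.06, peak ZT16.9 ± 0.5, adjusted p 0.00254) had 25.0 to 32.0 CPM at ZT0 and ZT4 and 44.7 to 55.2 CPM at ZT16 and ZT20, without overlap between those times. Hspa5 (0.32 ± 0.05, peak ZT18.1 ± 0.7, adjusted p 0.0161) had 795 and 915 CPM at ZT0, 771 and 854 at ZT4, 826 and 699.9 at ZT8, 974 and 910.4 at ZT12, 1081 and 1188 at ZT16, and 1165 and 1242 at ZT20. Its 4 highest libraries were those of ZT16 and ZT20. Pdia6 (0.47 ± 0.08, peak ZT18.8, adjusted p 0.0149) and Dnajb11 (0.35 ± 0.06, peak ZT18.5, adjusted p 0.0107) peaked nearby. Herpud1 peaked earlier, at ZT13.9 ± 0.7 (0.49 ± 0.09, adjusted p 0.017), with 189 and 216 CPM at ZT12 and 84.3 to 152 CPM at all other times. Hyou1 and Creld2 kept their calls without any single library. The number of called members fell to 3 without ZT20 replicate 2 and to 4 without ZT20 replicate 1 or ZT8 replicate 1.

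In control β cells the 3 called were Creld2 (0.63 ± 0.12, peak ZT18.9 ± 0.7, adjusted p 0.0382), Pdia4 (0.50 ± 0.10, peak ZT18.5 ± 0.8, adjusted p 0.0373) and Dnajb11 (0.43 ± 0.09, peak ZT18.0 ± 0.8, adjusted p 0.0467). Creld2 had 120 to 160.4 CPM at ZT16 and ZT20, and 53.4 to 80.9 CPM at ZT4 and ZT8. At ZT12 its 2 libraries were far apart, at 112 and 50.4 CPM. All 3 calls were lost without any 1 of 9 of the 12 libraries. At an unadjusted p under 0.05 there were 15 members.

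In doxycycline β cells, all 10 ATF6-type members followed the cosine, with 8 of 11 XBP1-type, 2 of 8 further genes (Pdia3, Wfs1), 1 of 6 ATF4-type (Ddit3) and 1 of 5 sensors (Ern1). Pdia4 had the lowest p (amplitude 0.97 ± 0.11, peak ZT21.1 ± 0.4, adjusted p 0.00614), followed by Sel1l (0.48 ± 0.06, peak ZT20.1 ± 0.5, adjusted p 0.00686) and Sdf2l1 (0.84 ± 0.11, peak ZT22.3 ± 0.5, adjusted p 0.00899). Hspa5 had an amplitude of 0.81 ± 0.11 and peaked at ZT21.3 ± 0.5 (adjusted p 0.00956). Its 2 libraries had 3123 and 4921 CPM at ZT0, 2749.7 and 3222 at ZT4, 1810.2 and 1242 at ZT8, 2009 and 1604 at ZT12, 3439 and 3711 at ZT16, and 4626 and 4536 at ZT20. The ZT8 and ZT12 libraries were the 4 lowest. Herpud1 (0.77 ± 0.11, peak ZT19.0 ± 0.6, adjusted p 0.0121) had 176 and 162 CPM at ZT8 and 568 and 469.6 at ZT20. Creld2 had the amplitude 1.02 ± 0.16 (peak ZT21.9 ± 0.6, adjusted p 0.018). Hspa5, Pdia4, Sdf2l1 and Sel1l kept their calls without any single library. The number called was 4 without doxycycline β ZT20 replicate 1, 10 without either ZT8 library, and 16 to 23 without any other. In doxycycline α cells 3 members were called. Hyou1 had an amplitude of 0.42 ± 0.07 (peak ZT20.7 ± 0.6, adjusted p 0.0125). Creld2 had 0.39 ± 0.08 (peak ZT18.5 ± 0.8, adjusted p 0.0366) and Herpud1 0.48 ± 0.10 (peak ZT12.9 ± 0.8, adjusted p 0.0401). When each library was left out in turn, 0 of these 3 kept the call throughout, and Hyou1 lost it without ZT20 replicate 1. Of 9 other settings, Herpud1 lost the call under 6, Creld2 under 4 and Hyou1 under 2.

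**Figure D4:**
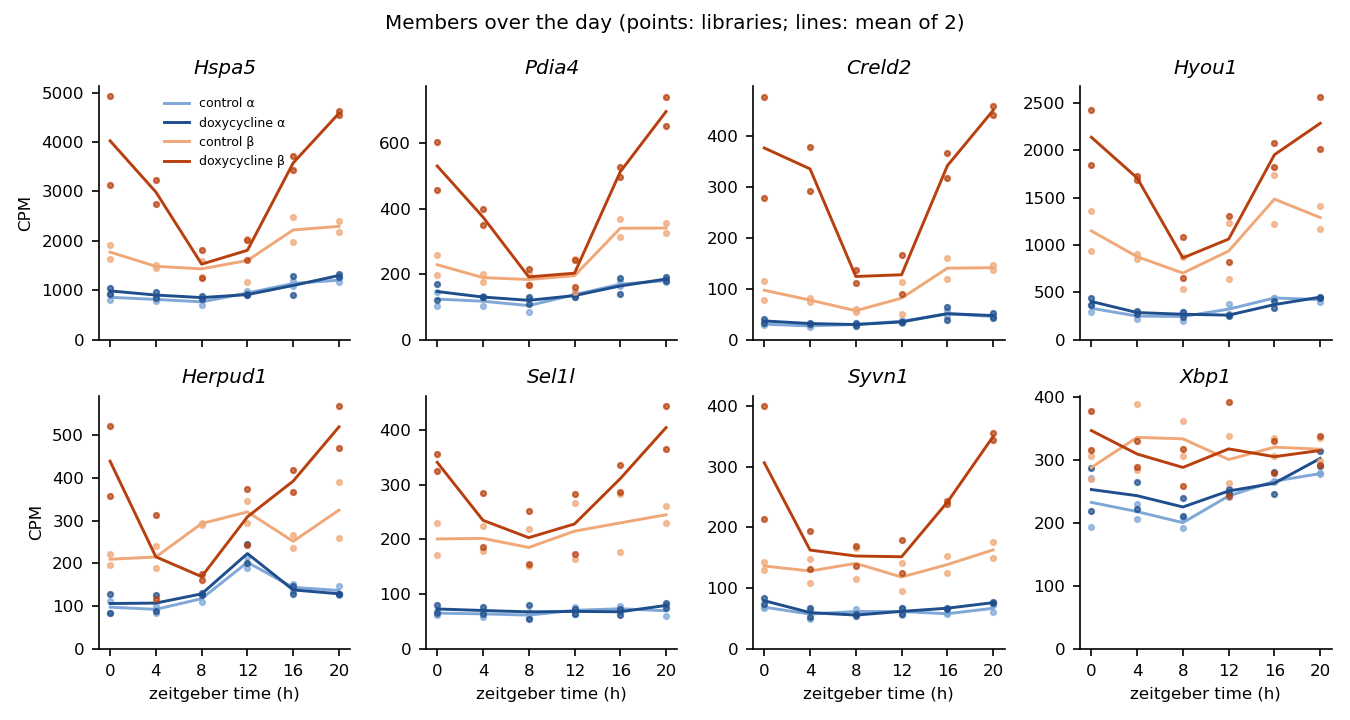
Level in CPM against zeitgeber time for Hspa5, Pdia4, Creld2, Hyou1, Herpud1, Sel1l, Syvn1 and Xbp1 in the 4 conditions. Points are single libraries and lines join the means of 2. Doxycycline and control β libraries of Hspa5 lie close at ZT8 and ZT12 and apart at ZT20 and ZT0, while Xbp1 stays between 193 and 393 CPM throughout.

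Amplitudes of all 10 ATF6-type members were larger in doxycycline than in control β cells, with a median of 0.73 against 0.33. Over all genes tested the median amplitude was 0.196 in doxycycline and 0.157 in control β cells. Fitted peaks of the ATF6-type members were later in 10 of 10, by 1.65 to 5.35 h (median 2.76 h). These counts are given without the share over all genes. Only 2 of these 10 cosines were called in control β cells, so most of the control peaks are uncertain. The 5.35 h belonged to Herpud1, which was not called there (adjusted p 0.342, SE of the peak 1.5 h). In α cells 0 of 10 amplitudes were larger (medians 0.32 after doxycycline and 0.38 in control), and 9 of 10 peaks were later there too (−1.01 to 4.78 h, median 1.82 h). Of these 10 cosines 3 were called in doxycycline α cells. The 4.78 h belonged to Sel1l, called in neither α condition (SE of the peak 2.9 h after doxycycline). The test of the difference itself called no member: 0 of 40 for doxycycline against control β cells (0% of all genes), 0 for α cells (0%) and 0 for control β against control α cells (0%). The lowest adjusted p in β cells was 0.86. At an unadjusted p under 0.05 there were 8 members in β cells (Herpud1, Syvn1, Pdia4, Hspa5, Sel1l, Dnajb11, Hsp90b1, Creld2), 1 in α cells (Hyou1) and 2 between the control cell types (Ddit3, Xbp1), and DESeq2 called 1 in β cells. The larger amplitudes and later peaks after doxycycline are therefore not shown to differ from control.

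The doxycycline effect in β cells, taken at each time, ran for Hspa5 from 1.15 at ZT0, 1.01 at ZT4, 0.08 at ZT8, 0.22 at ZT12 and 0.70 at ZT16 to 1.0 at ZT20. For Pdia4 these were 1.21, 0.98, 0.06, 0.07, 0.60 and 1.03, and for Syvn1 1.1, 0.33, 0.13, 0.36, 0.80 and 1.1. Herpud1 changed sign, at 1.04, −0.16, −0.79, −0.08, 0.64 and 0.70. These 4 were near their lowest difference at ZT8 or ZT12 and highest at ZT20 or ZT0. Creld2 stayed above 0 at all 6 times (1.93, 2.10, 1.12, 0.69, 1.30 and 1.67). A test of the effect against time called 0 members by edgeR in β cells (0% of all genes) and 0 in α cells (0%), with 8 and 0 members at an unadjusted p under 0.05, and DESeq2 called 2 and 0.

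**Figure D5:**
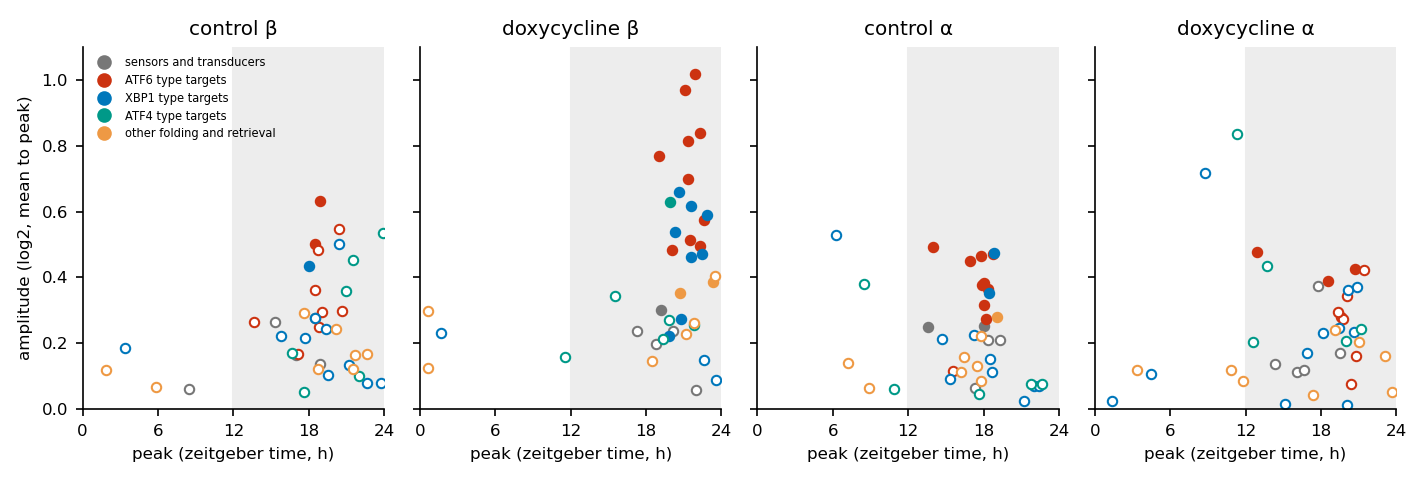
Amplitude (log2) against peak time (hours) of the fitted 24 h cosine for each tested member in the 4 conditions, coloured by group, with the dark phase from ZT12 to ZT24 in grey. Filled points have an adjusted p under 0.05. The 22 called members of doxycycline β cells lie between ZT19.0 and ZT23.3, and the 14 of control α cells between ZT13.6 and ZT19.0.

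Neighbouring genes of the pathway that are not members were taken from 2 further lists. Of 38 tested genes for ER translocation, glycosylation, folding and degradation, 32 rose and 0 fell in doxycycline β cells (median 0.35; 23.8% and 23.1% of all genes), and 0 were called in α cells (5 at an unadjusted p under 0.05). The lowest p belonged to Erlec1, an ERAD lectin (0.69 ± 0.07, adjusted p 1.72e-07), Sil1 (0.54), an exchange factor for BiP, Ssr4 (1.01), a translocon-associated subunit, and the signal peptidase subunit Sec11c (0.89). The interaction was positive for 19 and negative for 0 (12.7% and 12.8% of all genes). In control mice 29 of these genes were higher and 2 lower in β than in α cells (median 0.63; 34.2% and 37.3% of all genes). Among the higher was Uggt1, the glycoprotein folding checkpoint (1.72 ± 0.07). The cosine was followed by 12 of them in doxycycline β cells (11.6% of all genes), with Rpn1 of the oligosaccharyltransferase at an amplitude of 0.46 and a peak at ZT22.9. It was followed by 2 in control α (4.49%), 1 in doxycycline α (2.82%) and 0 in control β cells (2.17%). The shares in both α conditions lay near the background.

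Of 26 tested further targets of ATF4, 6 rose and 8 fell in doxycycline β cells (median −0.11), beside 23.8% and 23.1% of all genes, so the share that rose lay near the background. Vldlr, a lipoprotein receptor, fell by 0.99 on the log2 scale (SE 0.10, adjusted p 2.93e-07), and the transcription factor Atf5 by 1.28 (SE 0.15, adjusted p 9.61e-07). Sars, a tRNA synthetase, had a difference of −0.33 ± 0.07 (adjusted p 0.000339). Atf3, a stress-inducible factor also made by macrophages, rose by 2.35 ± 0.41 (adjusted p 0.000101). The interaction was negative for 6 (12.8% of all genes), Atf5 (−1.47) and Vldlr (−0.91) among them, and positive for 1 (12.7%), Atf3 (2.78). In control mice 16 of these genes were higher and 3 lower in β than in α cells (median 0.85; 34.2% and 37.3% of all genes), and the lowest p belonged to Atf5 (3.70) and Vldlr (4.08).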

How the data were processed

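PolyA RNA of sorted α and β cells was sequenced unstranded in 48 libraries. The deposited tables hold estimated counts per gene and RPKM values, which the authors made with bcl2fastq, STAR and GRCm38 per the submitters' processing notes. The counting program is not given in the sources used here. The RPKM values deposited by the authors equal the count divided by gene length and library total (0 values off by 0.1%). No table column lacked a sample (0 unmapped), and no pair of libraries was identical (0 pairs). Library totals were 16.1 to 69.9 M counts, so low members such as Trib3 in α cells are the least precise.

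Estimated counts were rounded, filtered with filterByExpr (count 10, total 15), scaled by TMM and tested with edgeR 4.0.16 (R 4.3.3) by quasi-likelihood F tests over all genes, with Benjamini-Hochberg adjustment at 0.05. Terms were the 6 times, the run and the effect. Rhythm fits had a 24 h cosine and sine and the run, with both coefficients tested together. Log2 CPM used a prior count of 2. CPM are comparable between libraries, and RPKM were used between genes. Printed CPM are per library. Alternatives were other scaling, filters and tools (limma 3.58.1 voom, DESeq2 1.42.0), each run alone, marker scores, a replicate block, and each library left out. The scripts were also run on simulated counts with known changes. This covered the doxycycline effect in β cells, the interaction, the rhythm in doxycycline β cells and the rhythm difference in β cells.

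Groups and replicate numbers came from the labels. Members and lists were chosen with earlier results of these data known. All 40 members are accounted for. Counts of members at least 2-fold apart, at an unadjusted p under 0.05 or higher at all 6 times are given without the share over all genes. They are therefore not set against the background. Library values are given for the sensors, Ddit3, and up to 12 members with the lowest p in each comparison of groups (6 for each rhythm), and from the further pathway lists up to 4 genes with the lowest p are named. Same-numbered α and β libraries deviated together in doxycycline mice (correlations 0.18 to 0.48 over genes) and less uniformly in control mice (0.04 to 0.40). Promoter sequences were read from RefSeq on GRCm38.p6.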

Additional observations from a re-analysis of the deposited data

Results flagged for a closer look

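The doxycycline effect differed between β and α cells in 21 members by the interaction test over all 48 libraries (edgeR, adjusted p under 0.05). The values below are the effect in β cells minus that in α cells on the log2 scale. It was positive for the retrieval receptors Kdelr3 (2.45) and Kdelr1 (0.37), and for the ERAD genes Derl3 (1.65), Edem2 (0.63), Syvn1 (0.58), Edem1 (0.39) and Sel1l (0.33). It was positive for the chaperones and co-chaperones Dnajb11 (0.79), Sdf2l1 (0.71), Hspa5 (0.63), Hyou1 (0.59), Dnajc3 (0.57) and Hsp90b1 (0.53), and for the isomerases Pdia6 (0.63), P4hb (0.61) and Pdia4 (0.58). The secreted ER proteins Creld2 (1.41) and Manf (0.45) complete the 18. It was negative for Trib3 (−1.33), Chac1 (−1.33) and Canx (−0.25). The median sum of macrophage and dendritic-cell markers was 214 CPM in control and 861 CPM in doxycycline β cells, and 75.8 and 88.7 CPM in α cells. With a score of it in the model 19 members were called, none of them negative, a count given without the share over all genes.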

How the results depend on the processing

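Among members called in a comparison, 0 of 5865 alternative values changed sign and 403 lost the call. These values include the amplitudes of the rhythms, which are never below 0, so a change of sign was possible only for the other comparisons. Of the 26 members that rose in doxycycline β cells, 18 kept the call under every setting, as did 33 of 39 for control β against α, 34 of 39 after doxycycline, 8 of 21 interactions and 0 of the rhythms. The rhythm counts are the least stable. Control β (3 called) gave 0 without TMM, 10 with DESeq2, 6 with a replicate block, 6 and 0 in the earlier and later run alone, 0 with time as 6 levels and 1 with limma-voom. Control α (14) gave 2, 0 and 1 in the earlier run, later run and with 6 levels. Doxycycline β (22) gave 4, 0 and 0 in the same order. Doxycycline α (3) gave 9 without TMM, 12 with DESeq2, 1 without the run term, 0, 0 and 0 in that order and 1 with limma-voom. Fewer libraries or fewer degrees of freedom enter the single-run and 6-level fits. The interaction count fell from 21 to 8 in the later run alone. DESeq2 called 1 member for doxycycline in α cells, 1 for the rhythm difference in β cells and 2 for the effect between times. Leaving out each library gave 3 to 17 rhythms in control α, 0 to 5 in control β, 0 to 6 in doxycycline α and 4 to 23 in doxycycline β cells, 25 to 27 members for doxycycline in β cells and 19 to 22 interactions. The replicate block groups libraries by replicate number. It left 26 members for doxycycline in β cells, 39 and 39 for β against α, 0 for doxycycline in α cells and 21 interactions. With it there were 13, 21 and 2 rhythms in control α, doxycycline β and doxycycline α. A block within each time, chosen after seeing the data, gave 39, 39, 26 and 0. Same-numbered doxycycline and control libraries correlated at −0.39 (β) and −0.48 (α) at ZT0. Values that changed sign belong to members that were not called, and the cause was not tested. Over the settings other than leaving out a library, there were 18 of 480 such values for doxycycline in β cells, 17 of 479 in α cells, 15 of 440 for the interaction, and 1 of 480 for β against α in each treatment. Among the sensors and ATF4-type genes in doxycycline β cells they were Atf6 (0.0018 without the run term, 0.11 in the later run; −0.051 to 0.036 without each library), Xbp1 (−0.0079 without TMM, −0.039 in the earlier run, −0.029 with ZT0 left out; −0.024 to 0.063), Atf4 (−0.16 in the earlier run; −0.0022 to 0.11), Trib3 (0.13 in the later run, 0.017 with ZT0 left out, 0.15 with the macrophage score; −0.20 to 0.056), Chac1 (0.14 in the later run, 0.058 with that score), Asns (0.048) and Ddit3 (0.0015), both with that score. Others were Ppp1r15a in control β against α (−0.069, earlier run), Ern1 after doxycycline (0.18, macrophage score) and Derl3 in doxycycline α cells (−0.31, earlier run). The rhythm differences were not run in the earlier run alone.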
